A study of Rattus norvegicus with 20 samples.

Results

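Cdh6, Cspg4, Col4a4 and Timp3 are 4 genes of cell adhesion and the basement membrane that were selected on the size of their change in cultured rat epithelial cells after transplantation into skin, out of 13302 genes that passed a filter of at least 1 CPM (counts scaled to library size) in at least 1 sample. Each holds an extreme among the called genes (limma, adjusted p under 0.05 and at least 2-fold) with a symbol whose higher group had 10 CPM or more in each sample. Cdh6 had the largest fall in bladder cells, Col4a4 the largest fall and Cspg4 the largest rise in vaginal cells, and Timp3 the largest fall in whisker cells. The gene ranked next changed by a log2 value of -5.77 in the bladder, -7.73 and 6.01 in the vagina and -4.57 in the whisker. These 4 changes, and comparisons with whisker cells that share their samples, are given as descriptions without a test.

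The cells came from Sprague-Dawley rats that express EGFP, a green fluorescent protein, throughout the body under an actin promoter. Bladder (dome) cells were taken at postnatal age PN201, tracheal and vaginal cells at PN200, thymic cells at PN137 and whisker follicle cells at PN57, counted in days. All were grown on irradiated mouse 3T3-J2 fibroblasts and sorted for EGFP. The 1st round is the culture before transplantation into newborn mouse skin, which was grafted on nude mice. The 2nd round is the culture recovered from these grafts months later, with 2 samples in each of the 10 groups. The whisker cells of the 1st round were clone 7 and those of the 2nd round subclone 14. The thymic cells were frozen stock, named in the labels both as a bulk culture and as clone 9 in the 1st round and as 907 in the 2nd, and the other cells were bulk cultures. Because nothing states that the 2 samples of a group came from separate animals, p-values measure the spread between these samples, which may be technical.

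The samples held 20723083 to 29824855 reads on genes. Epcam and Cdh1, both epithelial adhesion genes, were present in every sample, at 140 to 519 CPM and 806 to 2420 CPM. Tfap2b, on the whisker list, reached 32.9 to 51.8 CPM in whisker cells of both rounds and 8.14 to 8.42 CPM in recovered vaginal cells, and was at 0.154 CPM or less in all other samples. Upk1b, a urothelial gene, was at 134 to 191 CPM in bladder cells, and also at 124 to 164 CPM in thymic cells and at 125 CPM or more in tracheal cells of the 1st round. It therefore did not set the bladder cells apart. Krt4 and Esr1, 2 of 3 genes on the vaginal list, summed to 639 to 704 CPM in 1st round and 15.5 to 16.5 CPM in recovered vaginal cells. The sum was also 911 to 969 CPM in recovered thymic, 363 to 396 CPM in 1st round tracheal and 275 to 305 CPM in recovered bladder cells. Most of these sums was Krt4. Esr1 alone was at 20.6 and 17.1 CPM in 1st round vaginal cells and at 2.52 CPM or less in all other samples, recovered vaginal cells included (0.754 and 0.696 CPM). No gene on the tracheal and thymic marker lists could be paired with an identifier.

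The basement membrane is a sheet of matrix under every epithelium, built on networks of laminin and of type IV collagen. Collagen IV molecules are trimers. The alpha 1 and alpha 2 chains (Col4a1, Col4a2) form the network found in most basement membranes, whereas the alpha 3 and alpha 4 chains (Col4a3, Col4a4) assemble with alpha 5 in a more restricted network, best known from the kidney glomerulus, and their loss causes Alport syndrome. Cadherins join neighbouring cells through calcium-dependent contacts. Cdh6 (K-cadherin) is a classical cadherin of the embryonic kidney and neural crest. Cspg4, also called NG2, is a transmembrane chondroitin sulphate proteoglycan that binds collagens and is known from pericytes, oligodendrocyte precursors, melanoma and epidermal stem cells. Timp3 is a secreted inhibitor of metalloproteinases, including ADAM17, that is held in the matrix.

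The genes Col4a4 and Col4a3 lie head to head, and their annotated starts are separated by 412 bases in RefSeq (GRCr8). Their promoter windows, 250 bases before to 50 bases after each start, are shown because both genes changed together in these cells. The Col4a4 window is chr9:91323528-91323827 on the minus strand and the Col4a3 window is chr9:91323740-91324039 on the plus strand. Capitals mark the 88 bases that both windows hold, read on opposite strands.
Col4a4: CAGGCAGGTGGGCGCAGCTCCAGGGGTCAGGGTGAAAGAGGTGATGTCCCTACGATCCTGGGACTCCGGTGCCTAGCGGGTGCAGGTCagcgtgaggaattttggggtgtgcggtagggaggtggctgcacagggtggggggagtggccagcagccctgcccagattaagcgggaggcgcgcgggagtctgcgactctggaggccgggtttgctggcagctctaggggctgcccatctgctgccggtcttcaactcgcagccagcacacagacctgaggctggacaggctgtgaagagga
Col4a3: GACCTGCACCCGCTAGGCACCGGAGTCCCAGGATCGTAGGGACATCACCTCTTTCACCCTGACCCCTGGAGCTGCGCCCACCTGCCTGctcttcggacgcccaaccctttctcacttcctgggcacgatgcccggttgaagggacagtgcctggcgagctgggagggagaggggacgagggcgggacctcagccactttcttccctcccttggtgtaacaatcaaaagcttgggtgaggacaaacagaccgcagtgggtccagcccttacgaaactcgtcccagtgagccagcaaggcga
On either strand, TATAAA and CCAAT were absent from both windows, and are present in 14.2% and 37.5% of the 33469 promoter windows of the same length. GGGCGG was found at 1 place in the Col4a3 window and at none in the Col4a4 window, and 33.1% of all windows hold it. The GC content was 65.3% for Col4a4 and 62.0% for Col4a3, against a median of 51.7% for all windows.

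Col4a4 (ENSRNOG00000014851), the collagen IV chain, changed in opposite directions in different tissues. In vaginal cells, the group that chose it, the level was 54.0 and 49.9 CPM before transplantation and 0.0838 and 0.104 CPM in recovered cells, which is 2539 against 5 counts. In bladder cells it moved the other way, from 0.261 and 0.474 CPM to 19.8 and 20.5 CPM. In thymic cells it went from 6.71 and 9.86 CPM to 0.382 and 0.462 CPM. Bladder and thymic cells thus had no overlap between rounds, in opposite directions, and the share of all genes without such overlap is not given. Tracheal cells were at 2.27 and 2.82 CPM before and 2.11 and 1.86 CPM after. Whisker cells were at 0.0832 and 0.0937 CPM before and 0 and 0.0409 CPM after, or 4 counts against 1.

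By limma voom, with Benjamini-Hochberg adjustment over all 13302 genes and calls at an adjusted p under 0.05 and a fold of at least 2, Col4a4 rose in bladder cells by a log2 value of 5.78 (SE 0.39, adjusted p = 3.2e-09). It fell in thymic cells, with a log2 change of -4.20 (SE 0.37, adjusted p = 1.4e-07). Of all genes, 21.1% were called in bladder cells and 15.4% in thymic cells. The tracheal change of -0.35 (SE 0.28, limma adjusted p = 0.33) did not pass, and the whisker change of -1.53 (SE 0.91, limma adjusted p = 0.24) rested on 5 counts. The bladder and thymic changes differed by 9.98 on the log2 scale (SE 0.54, limma adjusted p = 5.3e-10), a comparison made after the values were seen, and 23.3% of all genes were called in it. In order of mean level, 1st round vagina came first at 52.0 CPM, followed by recovered bladder, 1st round thymus and 1st round trachea, with no overlap between neighbours. Recovered thymic and 1st round bladder cells overlapped each other, as did recovered vaginal and 1st round whisker cells.

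Cd68, the only immune marker of 4 that was identified, also differed between rounds in some of these groups. It was at 13.4 to 14.7 CPM in 1st round and 52.9 to 55.1 CPM in recovered bladder cells, and at 60.2 to 62.6 CPM in 1st round and 14.7 to 16.6 CPM in recovered vaginal cells. In the trachea, where Col4a4 did not pass the test, Cd68 was at 11.1 to 12.2 CPM before and 55.2 to 61.9 CPM after, and in the thymus, where Col4a4 fell, at 25.8 to 29.7 CPM before and 27.8 to 28.2 CPM after. Its part in the Col4a4 changes was not tested. In bulk samples, fewer cells of a type and less RNA per cell cannot be told apart.

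**Figure D1:**
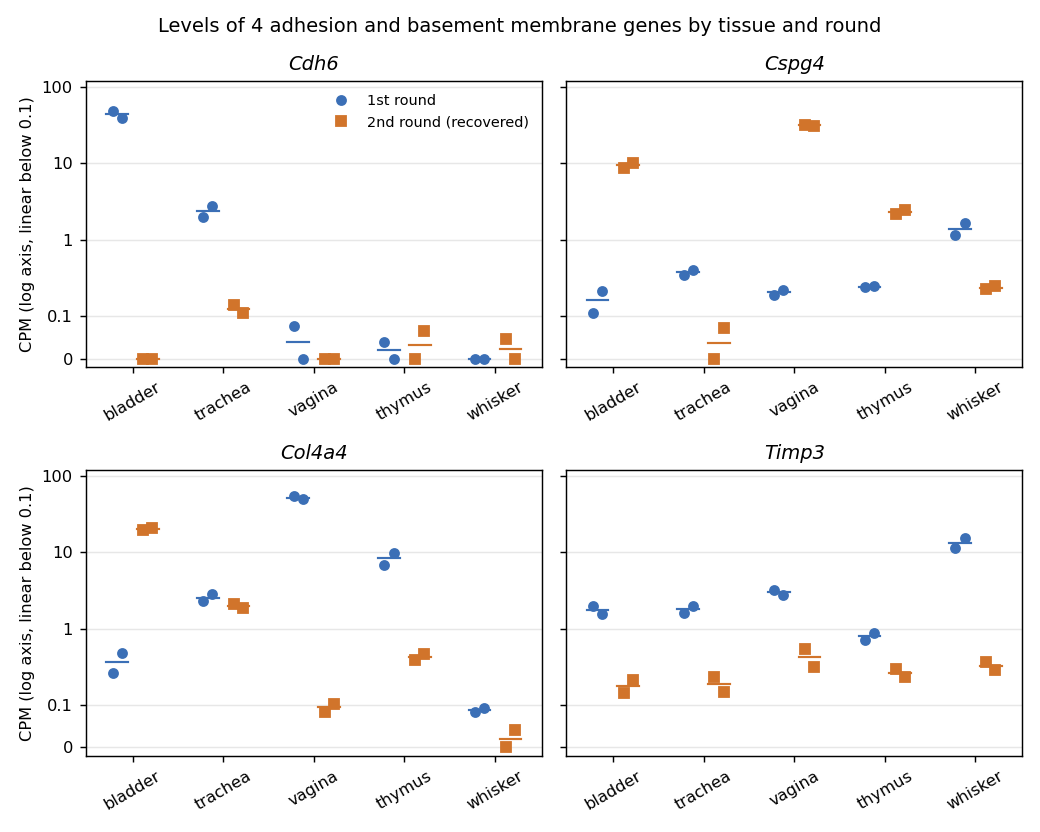
Levels of Cdh6, Cspg4, Col4a4 and Timp3 in CPM (log axis, linear below 0.1) in 5 tissues. Points are the 2 samples of a group, lines their mean, blue circles the 1st round and orange squares the recovered cells. Timp3 is lower in the recovered cells of all 5 tissues, while Col4a4 and Cspg4 go up in some tissues and down in others.

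Among the collagen IV partners, Col4a3 moved in the same direction as Col4a4 in bladder, vaginal and thymic cells. It went from 0.261 and 0.0431 CPM to 6.05 and 5.21 CPM in bladder cells (log2 change 5.34, SE 0.79, limma adjusted p = 2.3e-05). In vaginal cells it went from 9.40 and 8.06 CPM to 0 counts in both recovered samples, which is at least 154-fold lower when the recovered pair is set to a floor of 3 counts over both samples. In thymic cells it went from 0.794 and 3.11 CPM to 0.255 and 0.066 CPM (log2 change -3.45, SE 0.79, limma adjusted p = 0.0021). The 2 samples of 1st round thymic cells thus lay far apart for Col4a3, at 20 and 75 counts. In whisker cells no count was seen in any of the 4 samples, and tracheal cells stayed between 0.231 and 0.483 CPM in both rounds. Without the vaginal groups, whose Col4a4 levels chose the gene, log2 levels of Col4a3 and Col4a4 correlated with r = 0.97 (Spearman 0.99) across the other 8 group means, which share libraries and scaling. Over the 20 samples, vaginal ones included, Col4a3 had the pattern most like Col4a4 of 2310 named genes (r = 0.96), followed by Jam2, a junctional adhesion molecule (0.87), and the unnamed AABR07035008.1 (0.85).

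Col4a1 and Col4a2, the chains of the common network, took the opposite course in 3 tissues. Col4a1 went from 74.1 and 69.4 CPM to 8.33 and 9.86 CPM in bladder cells (log2 change -2.98, SE 0.17, limma adjusted p = 6.6e-10). In vaginal cells it rose from 7.15 and 8.24 CPM to 52.3 and 60.8 CPM (log2 change 2.88, SE 0.18, limma adjusted p = 3.8e-09). In thymic cells it rose from 9.13 and 7.33 CPM to 19.4 and 21.5 CPM (log2 change 1.32, SE 0.19, limma adjusted p = 2.6e-05). Bladder cells therefore lost Col4a1 while they gained Col4a4, and vaginal and thymic cells did the reverse. The vaginal fall of Col4a4 is the change that chose this gene, so only bladder and thymic cells show the opposite course apart from that choice. Col4a2 changed in the same direction as Col4a1, by log2 values of -2.71 in bladder, 3.47 in vaginal and 1.68 in thymic cells. In the trachea both chains fell, with log2 changes of -2.01 for Col4a1 and -2.07 for Col4a2 (SE 0.15 and 0.18), without a called change of Col4a3 or Col4a4. In whisker cells Col4a2 fell (log2 -1.19, SE 0.15, limma adjusted p = 3.3e-05), while Col4a1 was below the fold threshold (log2 -0.67). Across the 8 group means other than the vaginal ones, the log2 level of Col4a4 correlated with that of Col4a1 at r = -0.50 (Spearman -0.52) and with that of Col4a2 at r = -0.66 (Spearman -0.62), and Col4a1 with Col4a2 at r = 0.95. The identifiers of Col4a5 and Col4a6, the other chains, could not be paired here.

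The 3 identified fibroblast markers of a list of 8 (Col1a1, Col3a1 and Dcn, none at 0 in any group) moved in the direction of Col4a1 and Col4a2 in the bladder, trachea and thymus. Summed, they were at 189 to 246 CPM in 1st round bladder cells and 25.0 to 27.5 CPM in recovered ones, and at 258 to 265 CPM before and 35.5 to 41.2 CPM after in the trachea. In vaginal cells, where Col4a1 and Col4a2 rose, the sum was 24.9 to 28.6 CPM before and 21.4 to 24.2 CPM after. In thymic cells it was 19.4 to 19.6 CPM before and 34.4 to 37.9 CPM after. The part of these markers in the collagen changes was not tested.

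**Figure D2:**
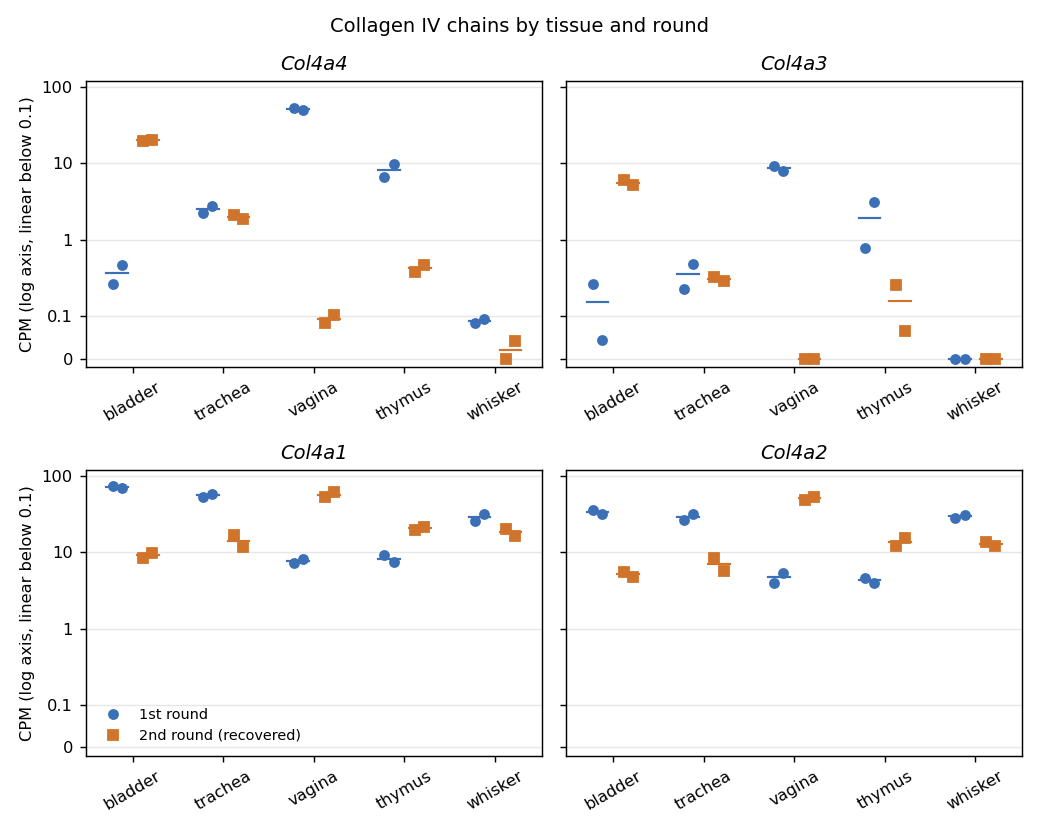
Collagen IV chains Col4a4, Col4a3, Col4a1 and Col4a2 in CPM (log axis, linear below 0.1) by tissue and round, drawn with the same symbols and scale as the levels of the 4 genes. Bladder cells have less Col4a1 and Col4a2 and more Col4a3 and Col4a4 after recovery, and vaginal and thymic cells the reverse. The vaginal fall of Col4a4 is the change that chose this gene.

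Compared with whisker cells of the same round, Col4a4 was higher in all 6 comparisons that its choice had not used. Such comparisons share the whisker samples, and the identifier itself came from lists of genes that differ from whisker cells, so that some differ is no finding. In the 1st round it was higher by log2 6.20 in thymic cells (SE 0.56, limma adjusted p = 1e-07), 4.53 in tracheal cells (SE 0.58, limma adjusted p = 3.9e-06) and 1.74 in bladder cells (SE 0.67, limma adjusted p = 0.030), where 12.5%, 15.4% and 18.2% of all genes were higher. The bladder difference lost its call when either whisker sample or the second bladder sample was left out, with log2 values of 1.65, 1.82 and 1.35. In the 2nd round the whisker cells held 1 count in all. The ratio of pooled counts to them was 932 for bladder (95% counting interval 167 to 36837), 90.9 for trachea (15.9 to 3629) and 19.7 for thymus (3.20 to 812), and 13.5%, 9.83% and 10.4% of all genes were higher in these comparisons. Counting intervals do not cover the spread between samples. Leaving out either recovered whisker sample moved the log2 differences, which were 9.05 in bladder, 5.71 in trachea and 3.54 in thymus, to ranges of 8.36 to 9.77, 5.01 to 6.42 and 2.84 to 4.25, and all 3 were called in each case.

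Cspg4 (ENSRNOG00000017208), the surface proteoglycan, was chosen for its rise in vaginal cells, from 0.191 and 0.222 CPM to 31.9 and 31.3 CPM, or from 10 to 1661 counts. In bladder cells it went from 0.112 and 0.216 CPM to 8.67 and 10.3 CPM, and in thymic cells from 0.238 and 0.249 CPM to 2.21 and 2.44 CPM. In whisker cells it went down, from 1.16 and 1.64 CPM to 0.230 and 0.246 CPM. Rounds did not overlap in any of these tissues, the vaginal cells that chose the gene included. The share of all genes without such overlap is not given, so this only describes 2 samples per round. The level before transplantation was below 0.5 CPM everywhere but in whisker cells. Tracheal cells went from 0.346 and 0.402 CPM to 0 and 0.073 CPM.

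By limma, Cspg4 rose in bladder cells (log2 5.77, SE 0.41, adjusted p = 5.8e-09) and in thymic cells (log2 3.16, SE 0.39, adjusted p = 6.0e-06), where 10.1% and 8.49% of all genes rose. It fell in whisker cells (log2 -2.42, SE 0.42, limma adjusted p = 4.9e-04) and in tracheal cells (log2 -3.03, SE 0.65, limma adjusted p = 0.0014), where 3.83% and 8.04% of all genes fell. The tracheal fall rested on 19 counts before and 2 after, a ratio of 9.10 with a counting interval of 2.20 to 80.6. It was -2.11 on the log2 scale (limma adjusted p = 0.027) without the first recovered tracheal sample and -4.06 (limma adjusted p = 0.0026) without the second. Comparisons made after the values were seen gave a difference between the bladder and tracheal changes of 8.80 (SE 0.77, limma adjusted p = 3.8e-07) and between the thymic and whisker changes of 5.58 (SE 0.57, limma adjusted p = 1.2e-06), and 12.6% and 18.6% of all genes were called in them. The bladder change also differed from the whisker change (8.19, SE 0.59) and the tracheal from the thymic one (-6.19, SE 0.76), where 21.3% and 17.5% of all genes were called. The bladder change was also larger than the thymic one, by log2 2.61 (SE 0.56, limma adjusted p = 0.0012).

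Relative to whisker cells of the same round, Cspg4 was lower in 1st round and higher in recovered bladder and thymic cells, and lower in tracheal cells of both rounds. In the 1st round whisker cells were highest, and bladder, thymic and tracheal cells were lower by log2 values of -3.00, -2.40 and -1.83 (SE 0.45, 0.41 and 0.37, limma adjusted p = 1.8e-05, 1.0e-04 and 4.3e-04), with 13.7%, 10.4% and 12.9% of all genes lower. In the 2nd round bladder cells were higher than whisker cells by log2 5.19 (SE 0.38, limma adjusted p = 9.5e-09) and thymic cells by log2 3.18 (SE 0.40, limma adjusted p = 5.5e-06), with 13.5% and 10.4% of all genes higher. Because Cspg4 had itself fallen in whisker cells, these differences depend on the reference. Against 1st round whisker cells, recovered bladder cells were higher by log2 2.77 and recovered thymic cells by log2 0.76 (SE 0.26), which is under the fold threshold and not called. Tracheal cells were lower (log2 -2.43, SE 0.67, limma adjusted p = 0.0060), where 9.22% of all genes were lower, and this call was lost without the first recovered tracheal sample (log2 -1.51, limma adjusted p = 0.089). The first recovered tracheal sample held none of the 2 counts. Of the named genes, those most like Cspg4 over the 20 samples were Cyp26b1, a retinoic acid hydroxylase (r = 0.89), Abca8 (0.77) and Arhgap44 (0.75). The 20 samples included the vaginal ones that chose Cspg4. Cyp26b1 went from 20.6 and 24.9 CPM to 105 and 98.4 CPM in bladder cells and from at most 20.3 CPM to 51.5 and 55.4 CPM in vaginal cells.

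Acta2, smooth muscle actin, was the only identified gene of a list of 9 for pericytes and smooth muscle. It was lower in recovered than in 1st round cells of the bladder (4.48 to 4.90 against 8.03 to 10.3 CPM) and vagina (0.418 to 0.670 against 2.18 to 2.30 CPM), where Cspg4 was higher. In thymic cells it was higher in recovered cells (15.1 to 16.3 against 1.27 to 1.91 CPM), as was Cspg4. In tracheal cells it was lower in recovered cells (1.97 against 3.22 to 3.23 CPM), as was Cspg4. In whisker cells, where Cspg4 fell, Acta2 was at 0.416 to 0.562 CPM before and 0.205 to 0.414 CPM after. The part of Acta2 in the Cspg4 changes was not tested in any tissue. No gene of the melanocyte or endothelial lists could be paired.

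**Figure D3:**
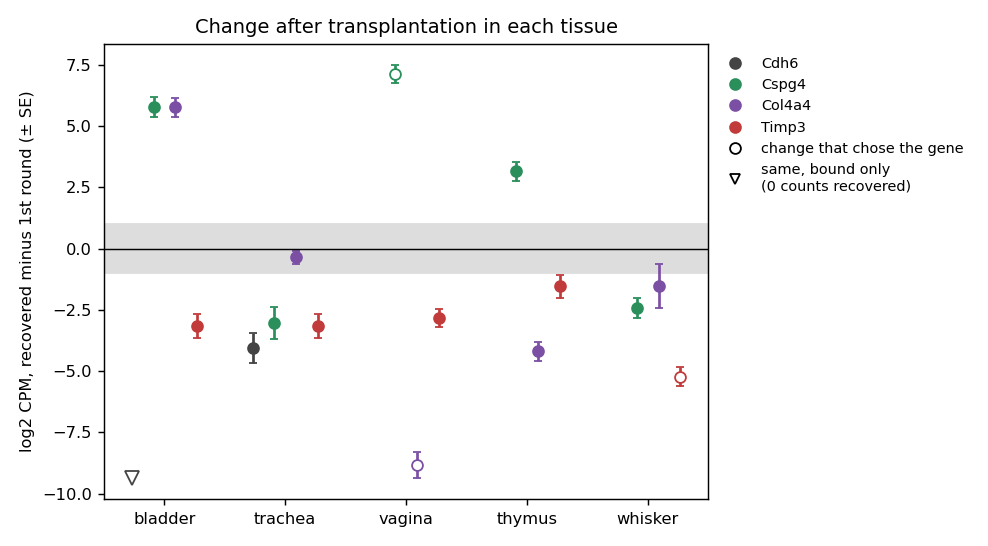
Change after transplantation, as log2 CPM of recovered minus 1st round cells with its SE from limma, for each gene in each tissue. Open symbols are the changes that chose a gene, the triangle is a bound for Cdh6, which had 0 counts in recovered bladder cells, grey marks less than a 2-fold change, and Cdh6 is not drawn where both rounds held 3 counts or fewer. Col4a4 and Cspg4 have tested changes on both sides of 0, while those of Timp3 all lie below it.

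Cdh6 (ENSRNOG00000013535), the classical cadherin, was the most restricted of the 4. In 1st round bladder cells it was at 49.3 and 38.9 CPM, with 1321 and 903 counts, and in recovered bladder cells both samples had 0 counts. This is at least 656-fold lower, with the recovered pair set to the floor of 3 counts. In tracheal cells it went from 2.00 and 2.82 CPM to 0.141 and 0.109 CPM, or from 52 and 70 counts to 3 in each sample. Vaginal, thymic and whisker cells held at most 2 counts per group in either round, so that 7 of the 10 groups were at or under the floor and 10 of the 20 samples had no count. No fold is given between groups at the floor.

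The tracheal fall of Cdh6 passed the test (log2 -4.05, SE 0.62, limma adjusted p = 7.6e-05), in a comparison where 8.04% of all genes fell. In the 1st round tracheal cells were at least 36.3-fold higher than whisker cells, which had 0 counts. Between recovered tracheal cells with 6 counts and recovered whisker cells with 1, the ratio was 5.68 with a counting interval of 0.690 to 261 and the difference was not detectable at this depth (limma adjusted p = 0.11).

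Of the 3 groups with Cdh6 above the floor, 1st round bladder and 1st round tracheal cells had the highest sums of the fibroblast markers, as given above. Recovered tracheal cells, with 6 counts of Cdh6, had a sum of 35.5 to 41.2 CPM, which overlapped that of 1st round whisker cells (23.2 to 44.9 CPM), where Cdh6 had 0 counts. Col1a1, the most abundant of them, was at 127 to 176 CPM in 1st round bladder cells and at 151 to 154 CPM in 1st round tracheal cells, while the mean of Cdh6 was 44.1 against 2.41 CPM. Their part in the Cdh6 result was not tested. The named genes most like Cdh6 over the 20 samples were Fam107a (r = 0.97), Cd69 (0.97) and Fam174b (0.96). The 20 samples included the bladder ones that chose Cdh6, and 10 of them had no Cdh6 count. All 3 genes were highest in 1st round bladder cells, at 5.30 and 6.25 CPM for Fam107a, 1.72 and 3.49 CPM for Cd69 and 2.28 and 1.72 CPM for Fam174b.

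Other cadherins showed different courses. Cdh1, E-cadherin of epithelial junctions, stayed within a 2-fold change in all 5 tissues, with log2 changes between -0.58 in the trachea and 0.33 in the vagina. Cdh2, N-cadherin, fell in bladder (log2 -4.14, SE 0.42), tracheal (-2.63, SE 0.52) and whisker cells (-1.47, SE 0.14) and rose in vaginal cells (3.31, SE 0.48). Cdh11, known from mesenchymal cells, fell in bladder (log2 -3.59, SE 0.33) and tracheal cells (-1.72, SE 0.29) and rose in thymic cells (1.77, SE 0.50). Cdh13, a cadherin anchored to the membrane by a lipid, rose in bladder (log2 1.77, SE 0.09), tracheal (1.40, SE 0.10) and thymic cells (5.63, SE 0.36), from 0.833 and 0.414 CPM to 30.9 and 29.7 CPM in the thymus. Cdh16 rose in bladder (log2 2.46, SE 0.46) and thymic cells (2.95, SE 0.36) and fell in vaginal (-4.03, SE 0.47) and whisker cells (-1.65, SE 0.39). The largest called fall of a cadherin in vaginal cells was that of Cdh17, with a log2 change of -5.20 (SE 0.70). All these calls are limma calls over the 13302 genes.

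Timp3 (ENSRNOG00000004303), the matrix-bound inhibitor, was lower in the recovered cells of every tissue. In whisker cells, the group that chose it, it went from 11.3 and 15.1 CPM to 0.368 and 0.287 CPM, or from 595 to 15 counts. It went from 1.98 and 1.55 CPM to 0.143 and 0.215 CPM in bladder cells, from 1.61 and 1.97 CPM to 0.235 and 0.146 CPM in tracheal cells and from 3.21 and 2.79 CPM to 0.545 and 0.313 CPM in vaginal cells. The thymic samples were at 0.714 and 0.870 CPM before and 0.297 and 0.231 CPM after. Every 1st round sample lay above every recovered sample across all tissues, including the whisker samples that chose the gene. The share of all genes with such a split was not counted. Among the recovered groups each overlapped the next in order, from vagina at a mean of 0.429 CPM down to bladder at 0.179 CPM, which is 8 counts in both samples together.

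In the 4 tissues that its choice had not used, Timp3 fell in 4 of 4. The log2 changes were -3.16 in bladder (SE 0.50, limma adjusted p = 4.5e-05), -3.15 in tracheal (SE 0.48, limma adjusted p = 7.6e-05), -2.83 in vaginal (SE 0.38, limma adjusted p = 2.0e-05) and -1.54 in thymic cells (SE 0.48, limma adjusted p = 0.014). The share of all genes that fell was 11%, 8.04%, 7.53% and 6.89% in these tissues. The thymic call was lost without the second sample of either round (log2 -1.42 with limma adjusted p = 0.053, and -1.37 with 0.10). Between pairs of these 4 tissues no difference of the changes was called, with limma adjusted p between 0.061 and 0.99. The widest was -1.62, for bladder minus thymus (SE 0.69).

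Whisker cells had the highest Timp3 level of the 1st round, 13.2 CPM on average against 0.792 to 3.00 CPM in the other tissues. After recovery they were at 0.327 CPM, within the range of the other tissues (0.179 to 0.429 CPM). These comparisons share the samples that chose the gene and were not tested. Timp3 lies within the gene Syn3 in RefSeq. Annotated genes also overlap Cdh6 (a long noncoding RNA gene on the opposite strand), Cspg4 (Cimap1c and a tRNA gene) and Col4a4 (a long noncoding RNA gene). The libraries were made with stranded reagents, but whether the counting used strand is not given in the sources used here. The named genes most like Timp3 over the 20 samples were Fam114a1 (r = 0.80), Aass, an enzyme of lysine breakdown (0.75), and Nuak1, a kinase (0.74). The 20 samples included the whisker ones that chose Timp3. Aass went from 12.7 and 11.8 CPM to 0.553 and 0.450 CPM in whisker cells. In thymic cells, where Timp3 and Fam114a1 were lower after recovery, the other 2 genes were higher. Aass went there from 0.397 and 0.414 CPM to 2.55 and 3.30 CPM, and Nuak1 from 2.78 and 3.31 CPM to 6.54 and 5.55 CPM.

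Adam17, a sheddase that Timp3 inhibits, was within a 2-fold change in all 5 tissues, with log2 changes from -0.28 in bladder to 0.77 in thymic cells. Adam19, a related transmembrane protease, was called lower in all 5, with log2 changes of -2.07 in bladder (SE 0.35), -3.19 in tracheal (SE 0.35), -3.71 in vaginal (SE 0.61) and -4.50 in thymic cells (SE 0.32), and with 9 counts before and 0 after in whisker cells. Mmp24, a membrane-type metalloproteinase, was called lower in 4, with log2 changes from -1.03 in vaginal to -3.53 in thymic cells. Adam12 fell in bladder cells (log2 -2.21, SE 0.13) and rose in thymic cells (2.77, SE 0.31). These calls are by limma over all genes. Timp1, Timp2, Timp4, Mmp2, Mmp9 and Mmp14 could not be paired.

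Over 5 lists of basement membrane genes, their receptors, cadherins and catenins, proteoglycans and metalloproteinases with their inhibitors, 31 of 123 genes could be paired, and all 31 passed the filter. The pairing came from lists of genes that differ from whisker cells, so the 31 are not a sample of all such genes. Without the 4 members, 27 remained. Of these 27, limma called 18 in bladder (6 rose, 12 fell), 13 in trachea (1 rose, 12 fell), 10 in vagina (4 rose, 6 fell), 13 in thymus (10 rose, 3 fell) and 7 in whisker cells (0 rose, 7 fell). These counts come to 66.7%, 48.1%, 37.0%, 48.1% and 25.9%. Among all 13302 genes 21.1%, 12.4%, 11.8%, 15.4% and 5.98% were called, and among the 2311 genes with a symbol 43.1%, 27.6%, 26.8%, 33.9% and 15.4%. The median log2 change of the 27 was -0.68 in bladder, -0.998 in trachea, -0.61 in vagina, 0.77 in thymus and -0.26 in whisker cells, against all-gene medians between -0.01 and 0.02.

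Within the basement membrane list, 6 of 34 genes were paired, the 4 collagen IV genes and 2 collagens that anchor epithelium to matrix. Col17a1, a hemidesmosome collagen, rose in bladder cells (log2 2.80, SE 0.20, limma adjusted p = 5.4e-09), and Col7a1, the collagen of anchoring fibrils, rose in bladder (log2 2.19, SE 0.19) and thymic cells (1.99, SE 0.19). Of the 2 receptors paired of 11, Bcam, a laminin receptor, rose in bladder cells (log2 1.36, SE 0.11), and Ddr2, a collagen receptor kinase, fell in bladder (-3.54, SE 0.59) and tracheal cells (-2.22, SE 0.49). Acan, the only other proteoglycan of 19 that was paired, fell in bladder cells, from 57 counts to 1. Among 10 of 28 cadherins and catenins, Ctnnd2, a neural catenin, fell in bladder cells from 147 counts to 1. Adamts4, a protease that cleaves proteoglycans, had the largest fall in bladder cells among the 11 metalloproteinases and inhibitors paired of 31 (log2 -3.82, SE 0.48, limma adjusted p = 4.0e-06).

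**Figure D4:**
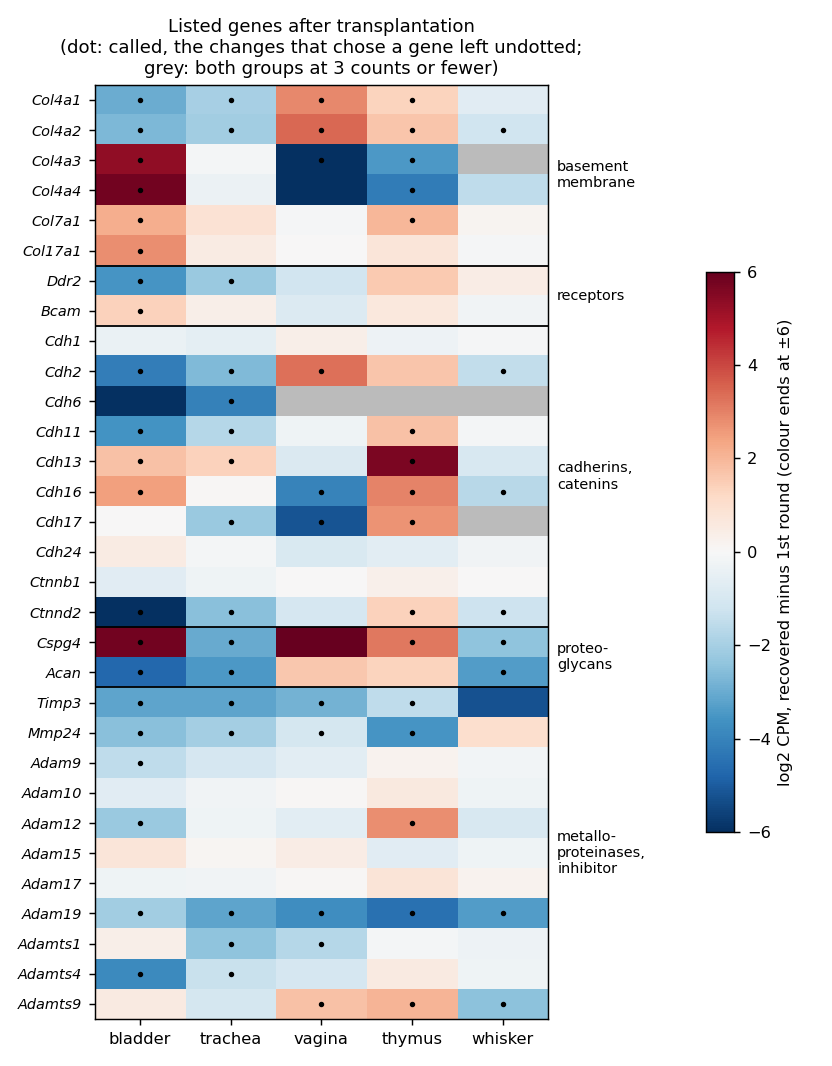
Log2 change after transplantation of the 31 paired genes of the 5 lists (rows) in 5 tissues (columns), with red for higher and blue for lower in recovered cells and colour ending at 6 in either direction. Dots mark limma calls, the changes that chose a gene are left undotted, and grey marks 3 counts or fewer in both rounds. The Timp3 row is blue in all 5 tissues, while the rows of Col4a3 and Col4a4 have colours opposite to those of Col4a1 and Col4a2 in bladder, vagina and thymus.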

How the data were processed

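RNA was sequenced from 20 samples of sorted EGFP rat cells, 2 in each of 10 groups. Per the labels, the authors trimmed reads with cutadapt 1.8, aligned them with STAR 2.5.2b to Rnor_6.0 and counted them per gene with HTSeq 0.6.1, and the deposited values are raw read counts. Reads not uniquely aligned (28.8% to 35.8%), without a feature (8.50% to 13.4%) or ambiguous (0.378% to 0.835%) were left out, which lowers genes with near-identical copies. Symbols came from the study's gene lists, which pair 2311 of 32494 identifiers.

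CPM values used TMM scaling (edgeR 4.0.16). The test was limma 3.58.1 voom (R 4.3.3), as in the study, with 1 mean per group over all 20 samples. The floor was 3 counts over both samples of a group, and counting intervals are exact at 95%. Likeness was Pearson's r of log2 CPM (prior count 2). The 2 samples of each group differed beyond sampling noise, so none were merged. The average chi-square per gene was 35.1 in 1st round bladder and 44.0 in 1st round thymic cells, and 2.51 to 10.1 in the other groups. The fit shared 1 spread per gene over all groups, which does not allow for a wider spread in these 2 groups. On counts simulated for recovered against 1st round vaginal cells (13302 genes), limma found 98% of 4-fold and 94% of 2-fold changes, with 13 false positives. Here only an adjusted p under 0.05 was asked for, without the fold threshold of the calls, so these are not the rates of the calls given above. The changed genes were drawn only from those above a set mean CPM over the 20 samples, which Cdh6, Cspg4 and Timp3 did not reach. The rates therefore do not cover these genes. Alternatives were edgeR's quasi-likelihood test, DESeq2 1.42.0, its size factors, other filters, a replicate block, a log2 threshold of 2, fits of 4 samples, 1st round whisker cells as reference and leaving out each sample.

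The members and the gene lists were chosen with earlier results of these data known. Also named are fixed partners, the largest called rise and fall of each list in each tissue (at least 1 CPM in the higher group), the 3 genes most like each member, and markers. Col17a1, Mmp24 and further changes of list genes were named after their values were seen. Promoters are from RefSeq (GRCr8), another build than that of the counts.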

Additional observations from a re-analysis of the deposited data

Results flagged for a closer look

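The change after transplantation differed between tissues in 10 of 18 pairs of tissues that the choice of a gene had not used and that held enough counts, by interaction contrasts in limma with adjustment over all genes. All were made after the values were seen. In 5 of the 10 both tissues had called changes in opposite directions.

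For Cspg4 these were bladder minus trachea (log2 8.80), bladder minus whisker (8.19), trachea minus thymus (-6.19) and thymus minus whisker (5.58), with limma adjusted p of at most 8.4e-06. The share of all genes called in these comparisons was 12.6%, 21.3%, 17.5% and 18.6%. For Col4a4 it was bladder minus thymus (9.98), with 23.3% of all genes called.

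In the other 5 the changes differed in size, or only 1 of the tissues had a called change. Col4a4 gave 6.13 for bladder minus trachea, 7.31 for bladder minus whisker, 3.85 for trachea minus thymus and -2.67 for thymus minus whisker (limma adjusted p = 0.036), of which those with whisker cells rest on 5 whisker counts. Cspg4 gave 2.61 for bladder minus thymus. No pair of tissues was called for Timp3. Groups of 2 samples were too small to look for single outlying samples.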

How the results depend on the processing

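For the 27 differences of the 4 genes that their choice had not used, 319 of 331 alternative fits kept the direction and the side of the threshold. Against 1st round in place of recovered whisker cells, Cdh6 in recovered trachea was called (log2 2.70) and Cspg4 in recovered thymus was not (0.76), which follows from the other reference. Differences of Timp3 from whisker cells share the samples that chose it and are values without a test. Against 1st round whisker cells recovered bladder cells were at -6.03, tracheal at -6.01, thymic at -5.55 and vaginal cells at -4.94, the last with the opposite sign to that against recovered whisker cells (0.30). With a log2 threshold of 2, Cspg4 in 1st round trachea against whisker (-1.83), Col4a4 in 1st round bladder against whisker (1.74) and the thymic fall of Timp3 (-1.54) were not called. In a fit of only 4 samples the Col4a4 bladder difference was 1.73 and not called, and the cause was not tested. Leaving out 1 sample gave ranges of 1.35 to 2.17 for that difference, -1.73 to -1.37 for Timp3 in thymus, -3.47 to -1.51 for Cspg4 in recovered trachea against whisker and, as a value without a test, -0.068 to 0.72 for Timp3 in recovered vagina against whisker, where the sign turned without the first vaginal sample. The numbers of genes called after transplantation and of list genes called stayed within 1.5 times in all alternatives run, from 665 to 1038 in whisker and 2615 to 3699 in bladder cells. DESeq2 size factors moved the median of all genes by at most 0.027 on the log2 scale.

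Deviations of samples with the same replicate number correlated between -0.12 and 0.24 (median 0.02 over 45 pairs of groups), so the numbers were not taken as pairs. With the replicate block, 2815 genes were called in bladder cells after transplantation against 2805 without it, and no tested call of the 4 genes changed. For 1st round bladder against whisker, where the correlation was negative, the crossed replicate block, chosen after seeing the data, called 4134 genes and the uncrossed one 4136 in fits of only those 4 samples. Levels near 3 counts limit Cdh6 outside bladder and trachea, Col4a4 in whisker and Cspg4 in recovered trachea.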
